A study of Mus musculus with 21 samples.

Results

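Messenger RNA of 5 genes of sodium transport was followed in the left ventricle of 21 male mice: Slc5a1 and Slc5a2, which encode the sodium–glucose cotransporters SGLT1 and SGLT2, and Atp1b1, Fxyd1 and Camk2d, proposed points of action of SGLT2 inhibitors in the heart. They were taken by gene symbol from a count table of 55450 genes, and 70 further genes of sodium and glucose transport were read beside them. All mice were of strain 129S6/SvEv, and the labels identify each animal by a cage number, shared with others, and a notch code. Of these, 12 were fed a control diet: 5 wild-type animals (WT-CD) and 7 animals with 1 mutant allele of the cardiac myosin heavy chain gene (Myh6+/R404Q, named R403Q here; R403Q-CD). The others were fed that diet with empagliflozin (EMPA) at 0.15 mg per g, namely 4 R403Q animals (R403Q-EMPA) and 5 wild-type animals (WT-EMPA). Diets began at 9 to 10 weeks of age. The sample labels give a treatment of 16 weeks, whereas the methods of the study place RNA sequencing after 2 weeks, at about 12 weeks of age, and the counts do not settle which holds. R403Q mice are a model of hypertrophic cardiomyopathy in which the mutant allele is present in the whole animal and the protein is made mainly in heart muscle. RNA came from whole ventricle, so that fewer cells of a type and less RNA per cell cannot be told apart.

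SGLT2 reabsorbs glucose in the kidney and is the target of empagliflozin. SGLT1 takes up glucose in the gut and is also known from heart muscle. Both draw on the sodium gradient, which the Na,K-ATPase maintains by moving sodium out of the cell. Its beta subunit, chiefly Atp1b1 in the heart, carries the pump to the membrane, and the small protein phospholemman, encoded by Fxyd1, restrains the pump until it is phosphorylated. CaMKII delta, encoded by Camk2d, is the main cardiac isoform of a calcium-dependent kinase that acts on sodium channels and calcium release.

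Libraries held 23491535 to 43539684 counts. Levels are given as CPM, the counts per 1000000 counts of the library after scaling by trimmed means (TMM). Ventricular muscle markers such as Myl2 and Tnnt2 summed to between 28616 and 49789 CPM per mouse, atrial markers to between 80.2 and 662 CPM. R403Q-CD replicate 2 stood apart: it had the largest library, the lowest sum of ventricular markers, the highest sum of atrial markers and the highest sum of fibroblast markers, at 3801 CPM. It had the lowest Slc5a1 level of all mice and the highest Atp1b1 level of its group. No cage held both diets, so that cage and diet cannot be told apart, whereas 6 of the 7 cages held both genotypes.

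SGLT2 RNA was barely detected. Slc5a2 (ENSMUSG00000030781; GRCm38 chr7:128265657-128272430, plus strand) received 5 counts among the 698558299 counts of all 21 mice. WT-CD replicates 2 and 4, R403Q-CD replicate 5, and WT-EMPA replicates 1 and 5 held 1 count each, and the other mice, among them every R403Q-EMPA mouse, held 0. Pooled over all mice, this was 0.00716 CPM, with an exact Poisson 95% interval of 0.00232 to 0.0167 that covers counting error only. The 0 counts of R403Q-EMPA allow a level of up to 0.0245 CPM, taking 3 counts as the limit. By the exact Poisson 95% interval the upper bound of that group was 0.0302 CPM. The groups overlapped at 0. The counts were too few for the planned exact permutation tests of mean CPM to show a difference or its absence, and no p-value is drawn on for this gene. The gene shares 597 exon bases with BC017158 on the opposite strand, and counting was by strand according to the methods of the study. The sources used here do not say whether the library kit marked strand, and if it did not, reads of the shared bases cannot be assigned to one of the genes. Pdzk1ip1, whose product MAP17 is known as the accessory protein of SGLT2, was at 0.104 CPM, and Rsc1a1, a regulator of SGLT1, received no count.

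SGLT1 RNA was low but present in every mouse. Slc5a1 (ENSMUSG00000011034; GRCm38 chr5:33104219-33162870, plus strand) held 23 to 104 counts per library. In WT-CD its level was 1.29, 1.53, 1.93, 2.69 and 1.52 CPM (mean 1.79 ± 0.554, SD, n = 5). In R403Q-CD it ranged from 0.476 to 1.55 CPM, with a median of 1.36 (mean 1.19 ± 0.405, n = 7). The R403Q-EMPA mice had 2.51, 1.13, 1.88 and 2.21 CPM (mean 1.93 ± 0.592, n = 4) and the WT-EMPA mice 3.04, 1.81, 1.73, 1.47 and 2.50 CPM (mean 2.11 ± 0.647, n = 5). The lowest mean was therefore that of R403Q-CD, with R403Q-CD replicate 2 as the lowest mouse, and each group overlapped with the others.

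None of the Slc5a1 contrasts passed the threshold of an adjusted p under 0.05 in edgeR's quasi-likelihood test across 17309 genes. On the log2 scale R403Q-CD against WT-CD differed by −0.59 (SE 0.273, adjusted p = 0.218), and −0.45 (adjusted p = 0.355) without R403Q-CD replicate 2. For R403Q-EMPA against R403Q-CD it was 0.70 (SE 0.290, adjusted p = 0.300), with a 95% interval of 0.09 to 1.30, and 0.54 (adjusted p = 0.413) without that mouse. The interval for WT-EMPA against WT-CD ran from −0.36 to 0.84 around 0.24 (adjusted p = 0.805). R403Q-EMPA against WT-EMPA gave −0.13 (adjusted p = 0.866). The diet effect did not differ detectably between genotypes, the difference being 0.46 (SE 0.410, adjusted p = 0.999), 0.30 without R403Q-CD replicate 2 and 0.74 with cage as a factor. Averaged over genotypes, EMPA against CD gave 0.47 (SE 0.205, adjusted p = 0.202), and averaged over diets, R403Q against WT gave −0.36 (SE 0.206, adjusted p = 0.245). Without R403Q-CD replicate 2 these were 0.39 (adjusted p = 0.207) and −0.30 (adjusted p = 0.275).

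**Figure D1:**
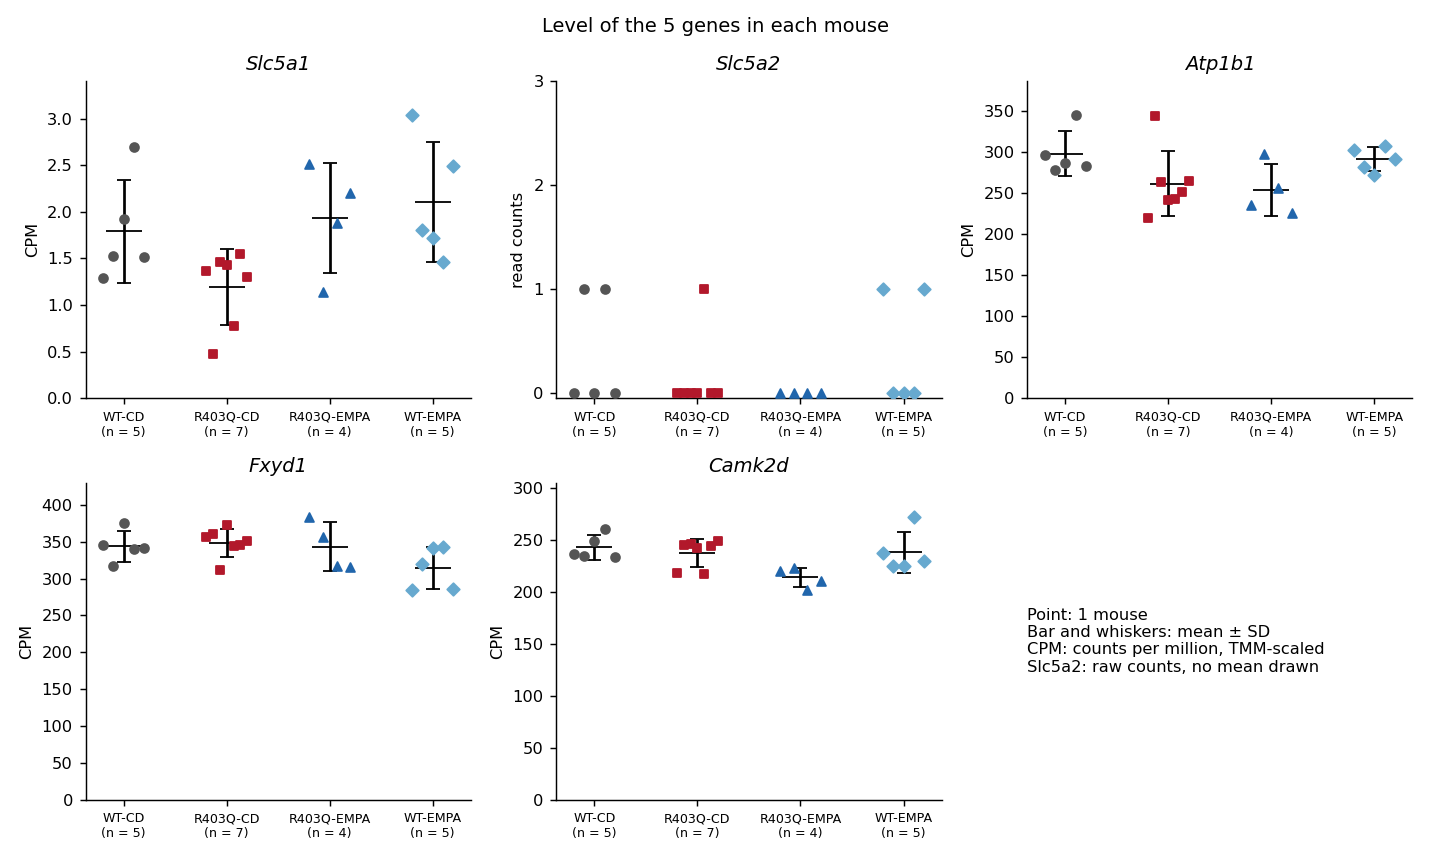
Level of each gene by group, 1 point per mouse, in TMM-scaled CPM for Slc5a1, Atp1b1, Fxyd1 and Camk2d with mean ± SD, and as raw counts with no mean for Slc5a2. Slc5a2 never exceeded 1 count, Slc5a1 lay between 0.476 and 3.04 CPM, and the other genes lay between 202 and 384 CPM.

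Per length, SGLT1 RNA was far below that of the main facilitative glucose transporters of heart muscle, GLUT4 and GLUT1. Levels between genes are given as CPM per kb of the median coding transcript, with the length of all exons of the gene as the other scale. On the first scale Slc2a4, which encodes the insulin-responsive carrier GLUT4, was 643-fold above Slc5a1 (398-fold by all exons), and Slc2a1, which encodes GLUT1, was 15.8-fold above it (14.7-fold by all exons). Slc2a3, which encodes GLUT3, was close to it, at 0.661 CPM per kb on the first scale and 0.361 by all exons, against 0.413 for Slc5a1 on both. Within the SLC5 family of 13 genes, Slc5a1, at 0.413 CPM per kb, came after Slc5a6, the sodium-dependent vitamin transporter, at 4.75 CPM per kb, and Slc5a3, the sodium/myo-inositol cotransporter, at 0.655 CPM per kb. These were the 3 family members with enough counts to test, Slc5a4b and Slc5a12 had no counts, and Slc5a2 had 0.00306 CPM per kb.

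**Figure D2:**
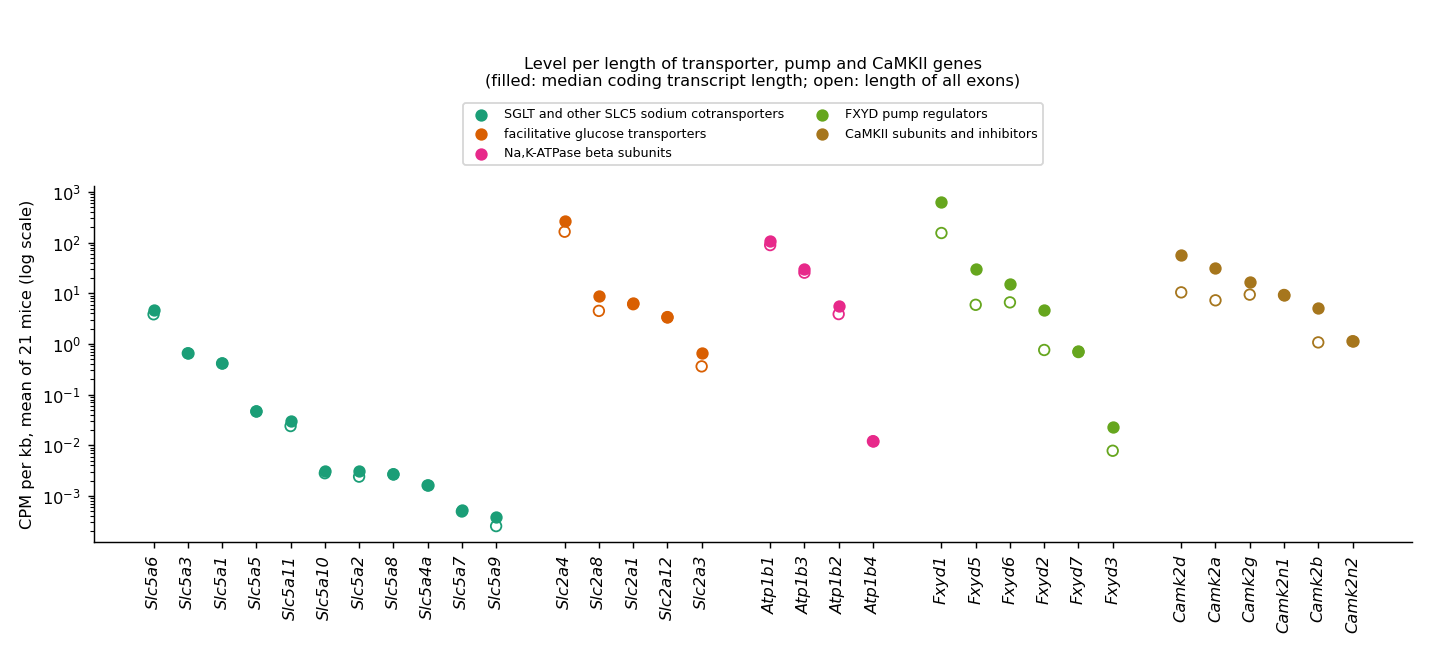
Mean level over 21 mice in CPM per kb, on a log axis, for 5 families, each sorted from high to low; filled points use the median coding transcript length and open points the length of all exons, and genes with no counts are left out. Slc5a2 lies at 0.00306 and Slc5a1 at 0.413, against 107 for Atp1b1, 628 for Fxyd1 and 56.3 for Camk2d on the filled scale.

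The sequences upstream of Slc5a1 and Atp1b1 are shown side by side for their contrast in level. Of the 5 genes followed, 4 were tested, and among these Slc5a1 was the lowest and Atp1b1 an abundant one. For both, RefSeq and GENCODE give the same start site. The windows are the 250 bases before the start site in RefSeq (GRCm38.p6), read 5′ to 3′ on the strand of the gene, chr5:33103969-33104218 for Slc5a1 on the plus strand and chr1:164458356-164458605 for Atp1b1 on the minus strand. Capitals mark matches, on either strand, to the E box CACGTG, the GC box GGGCGG, the TATA box TATAAA and the CCAAT box CCAAT, which occur in 6.02%, 32.7%, 12.4% and 33.9% of 32851 such windows.
Slc5a1: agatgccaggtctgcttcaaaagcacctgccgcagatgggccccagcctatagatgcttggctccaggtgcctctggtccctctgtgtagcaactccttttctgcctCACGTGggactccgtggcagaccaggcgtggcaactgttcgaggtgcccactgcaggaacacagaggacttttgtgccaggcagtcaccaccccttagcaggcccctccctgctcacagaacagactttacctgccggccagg
Atp1b1: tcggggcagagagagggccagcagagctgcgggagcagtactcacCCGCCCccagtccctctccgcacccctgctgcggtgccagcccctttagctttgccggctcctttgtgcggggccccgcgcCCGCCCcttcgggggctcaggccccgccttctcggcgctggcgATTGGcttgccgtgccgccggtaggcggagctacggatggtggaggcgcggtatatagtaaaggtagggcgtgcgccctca
The Slc5a1 window held 1 E box and no other of these motifs. The Atp1b1 window held a pair of GC boxes and 1 CCAAT box, all on the opposite strand, and no E box or TATA box. G and C made up 60% of the Slc5a1 window and 70.4% of the Atp1b1 window, against a median of 52.4% over all windows. The Slc5a1 window held 6 CpG dinucleotides, the median of all windows, and the Atp1b1 window 24. These matches describe the sequence and are not evidence of binding.

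RNA of the pump beta subunit was abundant, and its difference between genotypes did not pass the threshold in the fit of all mice. Atp1b1 (ENSMUSG00000026576; GRCm38 chr1:164437109-164458355, minus strand) was the highest of the beta subunit genes, 3.49-fold above Atp1b3 per length. In WT-CD the mice had 296, 277, 286, 345 and 283 CPM (mean 298 ± 27.4, n = 5), and in R403Q-CD they ranged from 219 to 344 CPM with a median of 252 (mean 261 ± 39.8, n = 7). In R403Q-EMPA the values were 235, 297, 256 and 226 CPM (mean 254 ± 31.9, n = 4), and in WT-EMPA 303, 282, 272, 308 and 291 CPM (mean 291 ± 14.8, n = 5). Both wild-type groups thus had higher means than both R403Q groups, with overlap that came from R403Q-CD replicate 2, at 344 CPM, and R403Q-EMPA replicate 2, at 297 CPM.

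Averaged over diets, Atp1b1 in R403Q against WT had a fitted log2 difference of −0.19 (SE 0.0701, adjusted p = 0.0748). Without R403Q-CD replicate 2 it was −0.24 (adjusted p = 0.00874), without R403Q-EMPA replicate 2 it was also −0.24 (adjusted p = 0.0464), and DESeq2 gave −0.20 (adjusted p = 0.0476). Over all 21 fits that left out a mouse, the difference ran from −0.24 to −0.16, the latter without WT-CD replicate 4, and the adjusted p from 0.00874 to 0.150. With cage as a factor it was −0.20 (adjusted p = 0.130). Within the control diet it was −0.19 (SE 0.0918, adjusted p = 0.244), and −0.27 (adjusted p = 0.0640) without R403Q-CD replicate 2. Within EMPA it was −0.20 (SE 0.106, adjusted p = 0.386). The contrasts of diet lay near 0 for Atp1b1: R403Q-EMPA against R403Q-CD gave −0.04, with a 95% interval of −0.25 to 0.16 (0.03 without R403Q-CD replicate 2), and WT-EMPA against WT-CD gave −0.03, with an interval of −0.24 to 0.17. Atp1b1 shares 575 exon bases with Nme7 on the opposite strand, with the same limit of strand as for Slc5a2.

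RNA of phospholemman did not differ detectably between groups. Fxyd1 (ENSMUSG00000036570; GRCm38 chr7:31051678-31057199, minus strand) was the highest FXYD gene, at 628 CPM per kb of coding transcript against 30.4 for Fxyd5. The WT-CD mice had 345, 317, 375, 340 and 341 CPM (mean 344 ± 20.6, n = 5), and R403Q-CD ranged from 311 to 372 CPM with a median of 351 (mean 349 ± 19.1, n = 7). The R403Q-EMPA mice had 384, 356, 317 and 316 CPM (mean 343 ± 32.9, n = 4) and the WT-EMPA mice 285, 319, 341, 343 and 285 CPM (mean 315 ± 28.6, n = 5). WT-EMPA had the lowest mean, and all groups overlapped. The log2 fold changes were 0.02 for R403Q-CD against WT-CD (95% interval −0.12 to 0.16), −0.02 for R403Q-EMPA against R403Q-CD (−0.17 to 0.13), −0.13 for WT-EMPA against WT-CD (−0.28 to 0.02) and 0.13 for R403Q-EMPA against WT-EMPA (−0.03 to 0.29). Without R403Q-CD replicate 2 the first and the second of these were 0.01 (adjusted p = 0.969) and −0.02 (adjusted p = 0.955). Over the 7 contrasts the lowest adjusted p of Fxyd1 was 0.353.

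Camk2d RNA was lowest in R403Q-EMPA, without passing the threshold. Camk2d (ENSMUSG00000053819; GRCm38 chr3:126596302-126846326, plus strand) had 237, 234, 250, 261 and 234 CPM in WT-CD (mean 243 ± 11.7, n = 5) and 217 to 250 CPM, with a median of 244, in R403Q-CD (mean 238 ± 13.7, n = 7). The R403Q-EMPA values were 220, 223, 202 and 211 CPM (mean 214 ± 9.41, n = 4), and the WT-EMPA values 238, 225, 225, 273 and 230 CPM (mean 238 ± 19.8, n = 5). The 4 R403Q-EMPA mice lay below every wild-type mouse and overlapped with R403Q-CD only through its replicates 1 and 5. On the log2 scale R403Q-EMPA against R403Q-CD differed by −0.15 (SE 0.0625, adjusted p = 0.299), and R403Q-EMPA against WT-EMPA gave −0.15 (SE 0.0667, adjusted p = 0.282). R403Q-CD against WT-CD gave −0.03 (adjusted p = 0.789), a value whose sign depends on the scaling, since it was 0.04 with library size alone. The median shift of all genes between these scalings was 0.07 in that contrast. Averaged over diets, R403Q against WT gave −0.09 for Camk2d (SE 0.0442, adjusted p = 0.165), and averaged over genotypes, EMPA against CD gave −0.09 (SE 0.0442, adjusted p = 0.264). Without R403Q-CD replicate 2, Camk2d gave −0.15 (adjusted p = 0.363) for R403Q-EMPA against R403Q-CD, −0.04 (adjusted p = 0.746) for R403Q-CD against WT-CD, −0.10 (adjusted p = 0.122) for R403Q against WT and −0.09 (adjusted p = 0.258) for EMPA against CD.

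In all, 0 of the 4 tested genes passed the edgeR threshold in each of the 7 contrasts. Of all 17309 genes, 1.44% passed in R403Q-CD against WT-CD, 0.0116% in R403Q-EMPA against R403Q-CD, 0.0289% in WT-EMPA against WT-CD, 0.0578% in R403Q-EMPA against WT-EMPA and 0% in the difference between genotypes in the diet effect. For R403Q against WT averaged over diets the share was 10.9%, and for EMPA against CD averaged over genotypes 2.91%. With so few genes called in the contrasts between single groups, 0 of 4 does not set these genes apart from the rest. At an unadjusted p under 0.05, 1 of the 4 genes passed in R403Q-CD against WT-CD, 2 in R403Q-EMPA against R403Q-CD, 0 in WT-EMPA against WT-CD, 1 in R403Q-EMPA against WT-EMPA, 0 in the difference between genotypes, 2 in R403Q against WT and 1 in EMPA against CD. In the same order, 20.9%, 13.4%, 11%, 14.7%, 3.28%, 29% and 20.1% of all genes passed this unadjusted limit. DESeq2 called Atp1b1 in R403Q against WT averaged over diets and none of the 4 elsewhere, and limma on variance-stabilized values called none. Of the genes with an adjusted p, DESeq2 called 6.11%, 0.936%, 0.513%, 1.96%, 0%, 14.7% and 5.88% in that order, and limma 1.28%, 0.0116%, 0.00578%, 0.052%, 0%, 9.9% and 2.29%.

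**Figure D3:**
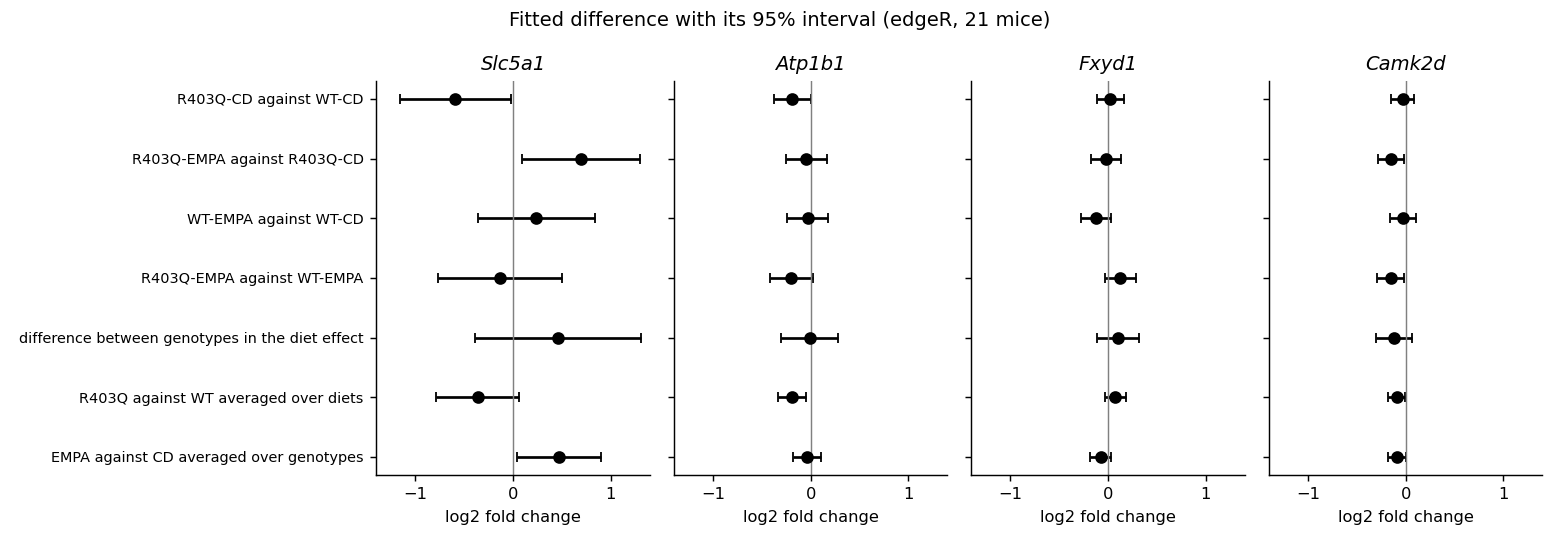
Fitted log2 fold changes with 95% intervals (x axis) of the 4 tested genes in each of 7 contrasts (rows), from edgeR on all 21 mice; a positive value means higher in the group named first. Intervals are widest for Slc5a1, and Atp1b1 lies at −0.19 in R403Q against WT averaged over diets.

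Camk2d made up most CaMKII counts in every mouse. Its share of the counts of Camk2a, Camk2b, Camk2d and Camk2g was 64.3% ± 1.20 in WT-CD (n = 5), 67.8% ± 3.06 in R403Q-CD (n = 7), 64.8% ± 1.23 in R403Q-EMPA (n = 4) and 63.7% ± 2.08 in WT-EMPA (n = 5). R403Q-CD replicate 2 had the highest share, 73.9%, and the other shares lay between 61.3% and 68.9%. The share needs no scaling between libraries. R403Q-CD against WT-CD gave a 2-sided exact permutation p = 0.0240, R403Q-EMPA against R403Q-CD p = 0.0909, WT-EMPA against WT-CD p = 0.556 and R403Q-EMPA against WT-EMPA p = 0.389. Adjusted over 12 planned ratio tests, 8 of which are not reported here, these were 0.0960, 0.156, 0.741 and 0.583, so that none passed. Without R403Q-CD replicate 2 the first and the second gave exact permutation p-values of 0.0281 and 0.0810 before adjustment, and neither passed after it. A test of R403Q against WT in both diets together, chosen after these values were seen, gave a difference of 2.29 percentage points (exact permutation within diets, p = 0.0204, adjusted over 15 tests, 0.0720). Permuting within cages gave an exact p = 0.0478 before adjustment and did not pass after it. Per length Camk2d was 1.80-fold above Camk2a and 3.35-fold above Camk2g by coding transcript, and 1.44-fold and 1.11-fold above them by all exons.

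**Figure D4:**
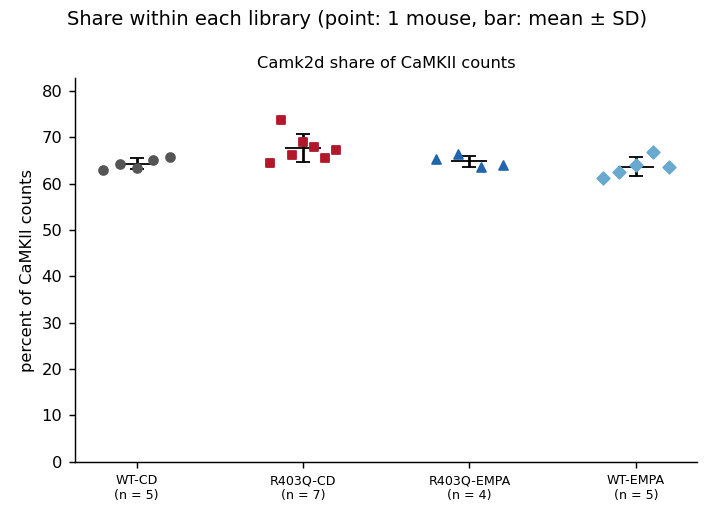
Camk2d counts as a percent of the counts of the 4 CaMKII genes in each library (y axis, starting at 0) by group, 1 point per mouse with mean ± SD. R403Q-CD replicate 2 is the highest point, at 73.9%, and the other mice lie between 61.3% and 68.9%.

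Among the other 70 sodium-handling genes, 52 had enough counts to test, and most of those that passed did so in R403Q against WT averaged over diets. For R403Q against WT averaged over diets, edgeR called 10 of them, or 19.2%, beside 10.9% of all genes: 8 were lower and 2 higher in R403Q. The median log2 fold change of the 52 was −0.08, against 0.01 over all genes, and no claim about the list is drawn from these counts. In R403Q-CD against WT-CD 1 of the 52, or 1.92%, was called, beside 1.44% of all genes. In EMPA against CD averaged over genotypes 1 was called, beside 2.91% of all genes, and the other contrasts gave 0. At an unadjusted p under 0.05 those with 0 had 6 in R403Q-EMPA against R403Q-CD, 8 in WT-EMPA against WT-CD, 15 in R403Q-EMPA against WT-EMPA and 2 in the difference between genotypes. These were 11.5%, 15.4%, 28.8% and 3.85% of the 52, beside 13.4%, 11%, 14.7% and 3.28% of all genes. DESeq2 called 0, 1, 3 and 0 of the listed genes in these, beside 145, 95, 304 and 0 of all genes, and limma called none of the listed genes, beside 2, 1, 9 and 0 of all genes.

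Of the regulators of the pump, 2 kinase genes were lower and 1 of 5 tested FXYD genes was higher in R403Q. In this contrast, R403Q against WT averaged over diets, 10.9% of all genes were called. Among the genes that act on phospholemman, Prkaca, the catalytic subunit of protein kinase A, gave −0.28 on the log2 scale (adjusted p = 0.0140) and Prkce, protein kinase C epsilon, −0.33 (adjusted p = 0.0188), and 2 of 9 were called. The phosphatase genes Ppp1ca and Ppp1cb, the highest of that list per kb of coding transcript, did not pass. By all exons Prkaca was the highest, at 111 CPM per kb against 96.6 for Ppp1ca. Fxyd2, the kidney-type FXYD protein, was higher (0.51, adjusted p = 0.0397) at 3.05 CPM over all mice, and lost its call with no filter on counts or with cage as a factor. Of the beta subunit genes 0 of 3 passed, Atp1b3 giving 0.15 (adjusted p = 0.153).

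Of the carriers that move sodium across membranes, 3 were called in the fit reported. These were 2 of 9 genes in the exchanger list and 1 of 7 other sodium-coupled carriers, beside 10.9% of all genes. Slc8a1, the sodium–calcium exchanger NCX1, was lower at −0.32 (SE 0.0894, adjusted p = 0.0282), and so was the bicarbonate cotransporter Slc4a7, at −0.22 (adjusted p = 0.0279). Slc9a9, an endosomal sodium–proton exchanger, was higher at 0.47 (adjusted p = 0.0152), and lost its call with cage as a factor. The exchanger scaffold gene Slc9a3r2, Slc38a2 and Slc20a2, the other highest genes of these lists, did not pass. Camk2b, the beta subunit of CaMKII, had the lowest value, −0.67 (SE 0.113, adjusted p = 0.00197), and was also the gene called in R403Q-CD against WT-CD (−0.60, SE 0.146, adjusted p = 0.0417), a call lost without R403Q-CD replicate 2 (−0.59, adjusted p = 0.0553) and kept in 3 of the 12 fits that left out a mouse of these groups. Camk2a gave −0.29 (adjusted p = 0.0884).

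Of the glucose carriers, 2 of 5 were lower in R403Q, and of the SGLT accessory and regulatory genes 1 of the 2 tested. The share of all genes called in this contrast was 10.9%. Slc2a4 gave −0.37 (SE 0.0942, adjusted p = 0.0182), with 659 CPM in WT-CD, 487 in R403Q-CD, 521 in R403Q-EMPA and 642 in WT-EMPA. Slc2a8, an intracellular glucose carrier, gave −0.22 (adjusted p = 0.0497), and −0.21 (adjusted p = 0.0526) without R403Q-CD replicate 2. Nedd4l, a ubiquitin ligase that removes sodium channels from the membrane, gave −0.25 (adjusted p = 0.0281), and Sgk1, the kinase that counters it, 0.29 (adjusted p = 0.0591). Slc5a6 gave −0.24 (adjusted p = 0.0831) and Slc5a3 −0.11 (adjusted p = 0.476). The 10 called genes kept their sign in every alternative fit. With library size alone, Nedd4l, Slc2a8 and Slc4a7 were no longer called, and with no filter Slc2a8 and Fxyd2 were not. With cage as a factor Nedd4l, Slc2a8, Slc4a7, Fxyd2 and Slc9a9 lost their calls, which left 5 called genes, all lower in R403Q. Of the 21 fits that each left out 1 mouse, all called Slc2a4, Prkaca, Prkce, Camk2b and Slc9a9, whereas Slc4a7 was called in 18, Slc8a1 in 17, Nedd4l in 15, Fxyd2 in 9 and Slc2a8 in 5.

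**Figure D5:**
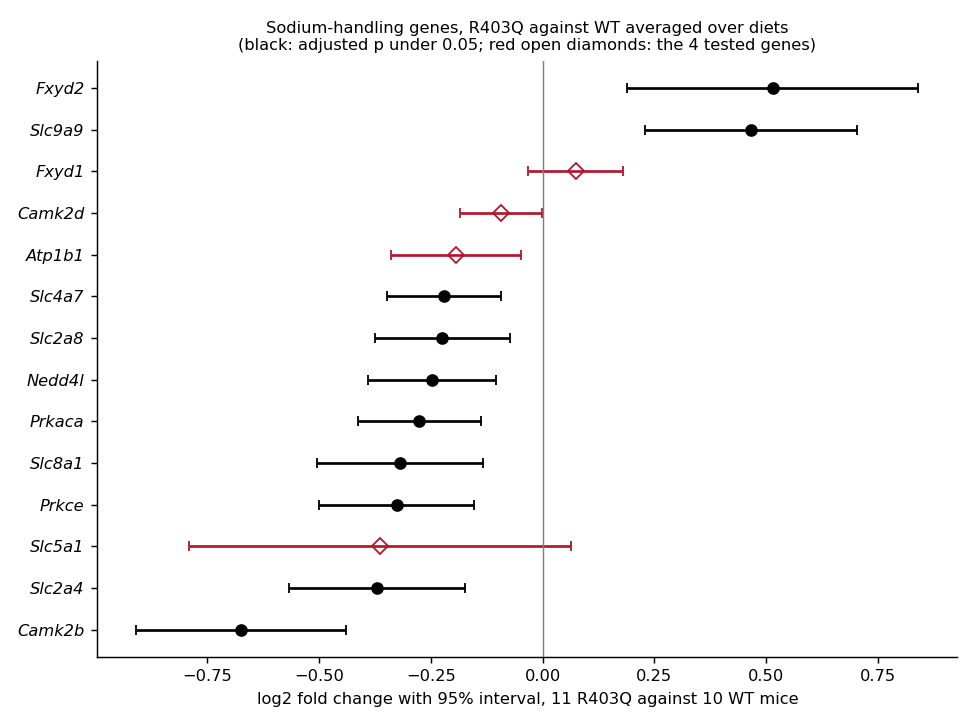
Log2 fold changes with 95% intervals (x axis) for R403Q against WT averaged over diets, for the 10 other sodium-handling genes past the threshold (black points) and the 4 tested genes Slc5a1, Atp1b1, Fxyd1 and Camk2d (red open diamonds), sorted by value. Of the black points 8 lie below 0, from −0.67 for Camk2b to −0.22 for Slc2a8 and Slc4a7, and Fxyd2 and Slc9a9 lie above it.

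Most macrophage markers and some fibroblast markers were higher in R403Q. In R403Q against WT averaged over diets, 10.9% of all genes were called. Of the markers, 5 of 6 for macrophages, 2 of 6 for fibroblasts and 1 of 6 for endothelium were called, all higher. The lists with 0 called were ventricular muscle (of 7), pericyte and smooth muscle (of 7), atrial (of 5), blood (of 5) and neuron and Schwann cell (of 4). The summed macrophage markers lay between 181 and 256 CPM in WT mice and between 249 and 362 CPM in R403Q mice, and the summed fibroblast markers between 1015 and 1762 CPM and between 1476 and 3801 CPM. No marker of these lists was at 0. Their part in the differences of the sodium-handling genes was not tested.

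With EMPA, the gene called was Scn4a, the skeletal muscle sodium channel. Averaged over genotypes it gave 0.84 (SE 0.229, adjusted p = 0.0494), with means of 16.7 CPM in WT-CD, 10.2 in R403Q-CD, 18.8 in R403Q-EMPA and 28.8 in WT-EMPA. The call was lost with cage as a random effect and was kept in 5 of 21 fits that left out a mouse. Of the clock genes, 7 of 15 passed in the same contrast, 2 higher and 5 lower, beside 2.91% of all genes. Among them were Arntl at 1.70 (adjusted p = 0.0244) and Dbp at −1.02 (adjusted p = 0.0289). Of the blood markers 4 of 5 were higher, Hbb-bs by 0.64 (adjusted p = 0.0211), and of the endothelial markers 1 of 6 was higher. Summed clock genes, which mix both directions, lay between 940 and 1255 CPM on the control diet and between 714 and 1132 CPM on EMPA. The summed blood markers lay between 706 and 1716 CPM on the control diet and between 1213 and 2659 CPM on EMPA. Of the pericyte and smooth muscle markers 0 of 7 passed, with a median log2 fold change of −0.55 and 4 at an unadjusted p under 0.05, and their sums lay between 897 and 1540 CPM on the control diet and between 815 and 1206 CPM on EMPA. Of the atrial markers 0 of 5 tested passed, with a median log2 fold change of −2.22 and 3 at an unadjusted p under 0.05. Their sums, over 6 genes, lay between 80.2 and 662 CPM on the control diet and between 80.4 and 181 CPM on EMPA. The highest sums were 662 CPM in R403Q-CD replicate 2 and 352 CPM in WT-CD replicate 5. Group medians were 118 CPM in WT-CD, 95.1 in R403Q-CD, 98.1 in R403Q-EMPA and 111 in WT-EMPA. The part of these lists in the values of Scn4a and Slc5a1 was not tested.

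The genes whose log2 CPM followed each of these genes most closely over the 21 mice were found among 12487 genes, as a description. For Slc5a1 they were Sec31b (Pearson's r = 0.889, Spearman's rho = 0.794), Abhd18 (r = 0.879) and Ppp1r3b (r = 0.878), and without R403Q-CD replicate 2 r was 0.814, 0.798 and 0.782. For Atp1b1 they were Aars (r = 0.893, rho = 0.934), Zfp710 (r = 0.835) and Itga7 (r = 0.819). For Fxyd1 they were Psma4 (r = 0.911, rho = 0.868), Snrpd1 (r = 0.906) and Cby1 (r = 0.894). For Camk2d they were Oaz2 (r = 0.800, rho = 0.718), Slc16a1 (r = 0.795) and Alas1 (r = 0.792). The points share library, depth and group, and after removal of the group means r for the first gene of each was 0.828, 0.877, 0.894 and 0.736.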

How the data were processed

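RNA of 21 left ventricles was sequenced by the authors after poly(A) selection as 100-base read pairs. Per the methods of the study and the submitters' processing notes, reads were aligned to mm10 with STAR 2.6.0c and counted with featureCounts (Subread 1.6.2) on Ensembl genes as uniquely aligned proper pairs on the same strand, without mitochondrial genes. The deposited table holds these counts. The log2-scale variance-stabilized values deposited by the authors (DESeq2 1.32.0) were used in 1 alternative.

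Groups came from the labels. Counts were tested with edgeR 4.0.16 (R 4.3.3): 1 quasi-likelihood fit of all 4 groups, filterByExpr with a minimum count of 10, TMM, and Benjamini–Hochberg adjustment over 17309 genes (threshold 0.05). The fit was tested on simulated data. Slc5a2 and the Camk2d share were compared by exact permutation of the mice, counting absolute differences at least as large as the observed one. Alternatives were library size alone, no filter, 3 groups (without WT-EMPA), DESeq2 1.42.0, limma 3.58.1, cage as a factor or random effect, and each mouse left out. Symbols, coordinates and lengths came from GENCODE M21 (GRCm38), an earlier release than the one counted on. CPM limits rest on 3 counts, which in single libraries is 0.0689 to 0.128 CPM.

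The members and lists were chosen with earlier results of these data known. Named were the 5 genes, each other listed gene past the threshold, the 2 highest genes of each list per length as the lists first stood, and the 3 genes most correlated with each tested gene among those of at least 1 CPM. Predicted genes were skipped. Some listed genes, and 2 planned ratios that need them, are not reported here and enter no count. Other genes, such as Slc2a1, the marker and clock genes and the genes without counts, were added as context after their values were seen.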

Additional observations from a re-analysis of the deposited data

Results flagged for a closer look

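Within the 4 groups, of 4, 5 or 7 mice, a highest or lowest value far from the rest was looked for in 23 sets of values, of which chance marks about 1 in 20. Atp1b1 was set apart at 345 CPM in WT-CD replicate 4, where the next mouse had 296 CPM, and at 344 CPM in R403Q-CD replicate 2, where the next had 265 CPM. Camk2d was set apart at 273 CPM in WT-EMPA replicate 4, against 238 CPM in the next. R403Q-CD replicate 5, at 0.0300 CPM of Slc5a2, rested on 1 count in a group otherwise at 0.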

How the results depend on the processing

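No paired analysis was possible because the labels give no replicate number shared between groups, but genotypes could be compared within cages, with cage as a block (factor or random effect) or by permutation within cages. The 4 tested genes stayed on the same side of the threshold in every alternative other than leaving out a mouse, except Atp1b1 in R403Q against WT, where DESeq2 called 1 of the 4 genes. Leaving out mice gave 0 to 1 called there. The sodium-handling genes called in R403Q against WT, 10 in the fit reported, numbered 15 by DESeq2, 5 with cage as a factor and 5 to 16 with mice left out (5 without R403Q-EMPA replicate 1, 16 without R403Q-CD replicate 3). In R403Q-CD against WT-CD, where 1 was called, 2 were called with library size alone, 0 with 3 groups, 6 by DESeq2, 4 with cage as a random effect, 5 with cage as a factor and 0 to 6 with mice left out (6 without R403Q-CD replicate 3). DESeq2 called 1 in WT-EMPA against WT-CD and 3 in R403Q-EMPA against WT-EMPA, where edgeR called 0. In EMPA against CD, where 1 was called, 2 were called with library size alone, 4 by DESeq2, 2 by limma, 0 with cage as a random effect and 0 to 3 with mice left out (3 without R403Q-CD replicate 3). The causes were not tested. Over all genes, R403Q-CD against WT-CD had 250 calls in the fit reported, 352 with library size alone, 98 with 3 groups and 984 by DESeq2. That contrast had 475 with cage as a random effect and 1128 with cage as a factor. With mice left out it had 31 (without WT-CD replicate 3) to 1045 (without R403Q-CD replicate 3). For R403Q against WT there were 1883, 2635 by DESeq2, 944 with cage as a factor, 961 without R403Q-EMPA replicate 1 and 2764 without R403Q-CD replicate 3. In EMPA against CD all genes had 504 calls, 314 with no filter, 471 with library size alone, 983 by DESeq2 and 397 by limma. There were 113 with cage as a random effect, 122 without R403Q-EMPA replicate 3 and 929 without R403Q-CD replicate 3.

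The signs that changed belonged to values near 0. Camk2d in R403Q-CD against WT-CD was 0.0353 with library size alone. With mice left out, the log2 fold change of Atp1b1 ran from −0.127 to 0.0327 in R403Q-EMPA against R403Q-CD, from −0.0556 to 0.0270 in WT-EMPA against WT-CD and from −0.0917 to 0.0655 in the difference between genotypes. That of Fxyd1 ran from −0.00603 to 0.0546 in R403Q-CD against WT-CD and from −0.0805 to 0.0150 in R403Q-EMPA against R403Q-CD, and that of Slc5a1 from −0.288 to 0.0588 in R403Q-EMPA against WT-EMPA. The Slc5a2 difference of WT-EMPA against WT-CD ran from −0.00483 to 0.00498 CPM. The Camk2d share over both diets ran from 1.78 to 2.69 percentage points, passing without WT-EMPA replicate 4 (adjusted p = 0.0183, exact permutation).

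Depth limits Slc5a2, whose 5 counts could not show a change. Cage and diet cannot be told apart.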
